A study of Homo sapiens with 120 samples.

Results

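Keratins are the intermediate filament proteins of epithelial cells, and keratin genes were followed here through single cells, small groups of cells and bulk extracts of CFPAC-1, an established human pancreatic ductal adenocarcinoma line. The genes KRT7, KRT8, KRT10, KRT17, KRT18, KRT19, KRT80, KRT81 and KRT86 were chosen by name, and 8 of these 9 were read from the authors' deposited expression table, each from a single row, out of 27118 distinct names. KRT19 was not analysed here. The names were chosen with results of these data in view, and the sources used here do not say which values singled out KRT81 and KRT86. The p-values given for the members therefore describe the contrasts and are no independent support for the choice.

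A keratin filament is built from pairs in which an acidic type I chain joins a basic type II chain. KRT8 (type II) and KRT18 (type I) are the pair of simple epithelia such as pancreatic duct, and KRT7 (type II) accompanies them in ductal and glandular cells. KRT10 (type I) is known from the upper layers of epidermis, KRT17 (type I) from basal cells, hair follicles and wounded skin, and KRT80 (type II) from differentiating epithelia. KRT81 and KRT86 are type II hair keratins, known from the cortex of the hair shaft.

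All cells were CFPAC-1, isolated either on microrafts, small releasable platforms on which cells are imaged before collection, or in the Fluidigm C1, a microfluidic chip that captures cells. For proliferation, 8 proliferative and 8 nonproliferative rafts were sequenced in each of 4 arms. The arms were untreated rafts, rafts given saline, and rafts given gemcitabine, a nucleoside analog used against pancreatic cancer, at 2 nM or 5 nM. The labels give the number of cells on these 64 rafts as unknown. For isolation there were 10 rafts with 2 cells, 10 with 1 cell and 10 empty, 5 C1 captures with 2 cells, 5 with 1 cell and 5 empty, and 4 bulk libraries, besides 7 libraries from water. The labels do not say whether the arms were prepared together, so an arm and any batch it formed cannot be told apart. No label names separate cultures, so p-values measure the spread between rafts, which may be technical.

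Values are FPKM, fragments scaled by transcript length and library total, so levels can be set side by side between genes. Detection means an FPKM of at least 1. No counts were used here, so depth is unknown and an FPKM of 0 says only that a gene was listed at 0. Libraries with 1 or 2 cells had 4804 to 11752 rows detected, and bulk libraries had 8570 to 10581. Empty rafts had 9 to 1301 rows detected and empty C1 captures 865 to 7953. In bulk, 17 of 18 ductal epithelial markers were detected in at least 2 of the 4 libraries. Summed FPKM in bulk was at most 32.2 for fibroblast markers, 8.33 for acinar markers, 2.26 for blood cell markers and 0.22 for endothelial markers. Of 20 epidermal keratinocyte markers measured, 15 were listed at 0 in every bulk library.

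KRT81 and KRT86 are near copies of each other on chromosome 12, which bears on every value given for either. In GENCODE release 29 (GRCh38) their coding sequences were identical at 94.2% of 1457 aligned bases, and the longest identical run was 605 bases. Of the 1880 stretches of 50 bases in the KRT81 transcript, 38.4% also occurred in KRT86, and of the 2042 in KRT86, 35.3% occurred in KRT81. Reads from such stretches can be given to either gene, so their separate values are uncertain. Their sum is given for levels by capture group and for the class tests, and not elsewhere. Coding bases 318 to 407 are shown first, as a stretch where a read cannot tell the genes apart.
KRT81: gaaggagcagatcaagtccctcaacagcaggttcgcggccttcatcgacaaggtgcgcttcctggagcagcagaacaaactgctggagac
KRT86: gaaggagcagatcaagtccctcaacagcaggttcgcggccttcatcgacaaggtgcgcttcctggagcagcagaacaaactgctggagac
Coding bases 1237 to 1326 are shown next, as the 90 bases with the most differences. The 19 differing bases are in capitals.
KRT81: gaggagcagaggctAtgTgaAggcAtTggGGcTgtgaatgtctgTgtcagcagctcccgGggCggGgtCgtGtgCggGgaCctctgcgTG
KRT86: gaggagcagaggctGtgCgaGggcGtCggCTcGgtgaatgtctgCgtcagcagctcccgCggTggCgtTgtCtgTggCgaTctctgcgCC
Reads from stretches of this kind separate the genes.

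Other members share sequence too. In KRT8, 41.3% of 50-base stretches occurred in transcripts of other genes, 24.1% in the pseudogene KRT8P3. In KRT18 the share was 47.6%, with 21.5% on the opposite strand of KRT8, with which it shares 525 exon bases. The share was 17.4% in KRT17, 10.8% in KRT7 and 0.4% in KRT10 and in KRT80. The sources used here do not state that counting used strand, so reads in exons that overlap a gene on the other strand cannot be told apart.

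The simple epithelial pair was abundant in every library with cells from the isolation experiment. KRT18 had 1113 to 3161 FPKM (median 1693) in 2-cell rafts and 577 to 2593 FPKM (median 1308) in 1-cell rafts. It had 517, 634, 2377, 1013 and 560 FPKM in 2-cell C1 captures, and 642, 1007, 4114, 1080.3 and 1452 FPKM in 1-cell C1 captures. Bulk libraries had 545, 724, 1018 and 854 FPKM. Every 2-cell raft lay above every bulk library, while the other groups overlapped bulk. The share of all rows that separate from bulk in this way was not computed, so this is given only as a description. By mean FPKM, KRT18 stood at rank 36 in 2-cell rafts, 49 in 1-cell rafts, 49 in 1-cell C1 captures and 176 in bulk.

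KRT8 had 777 to 1337 FPKM (median 966) in 2-cell rafts and 523 to 1921 FPKM (median 850.4) in 1-cell rafts. It had 484, 662, 1202, 405 and 325 FPKM in 2-cell C1 captures, and 577, 580.3, 1570.2, 1731 and 926 FPKM in 1-cell C1 captures. Bulk libraries had 242, 341, 398 and 409.7 FPKM. All rafts with cells and all 1-cell C1 captures lay above bulk, and 2-cell C1 captures overlapped it. For KRT8 too, the share of all rows that separate from bulk was not computed. Medians ran, from high to low, from 2-cell rafts through 1-cell C1 captures, 1-cell rafts and 2-cell C1 captures to bulk, and each neighbour in that order overlapped the next.

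Both partners were detected in every one of these libraries. The ratio of KRT18 to KRT8 was 1.01 to 2.36 (median 1.66) in 2-cell rafts and 0.78 to 2.61 (median 1.37) in 1-cell rafts. In the C1 it was 0.96 to 2.5 (median 1.72) with 2 cells and 0.62 to 2.62 (median 1.57) with 1 cell, and in bulk it was 2.09 to 2.56 (median 2.19). KRT18 was the higher partner in all 10 2-cell rafts, in 8 of 10 1-cell rafts, in 4 of 5 captures of each C1 group and in all 4 bulk libraries. Across the 20 rafts with cells, with set and cell-number means removed, KRT8 and KRT18 had a Spearman correlation of 0.735, given as a description since the rafts share library sets. In controls, KRT8 was listed at 0 in 8 of 10 empty rafts and had 100.5 and 183 FPKM in the other 2. KRT18 was at 0 in all 10 empty rafts, reached 38.5 FPKM in empty C1 captures, and had 546 FPKM in 1 of 7 water libraries.

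KRT7, the ductal companion, had 42.9 to 258 FPKM (median 150.1) in 2-cell rafts and 0 to 281 FPKM (median 115) in 1-cell rafts. In the C1 it had 0.4, 25.5, 80.9, 10.3 and 15.3 FPKM with 2 cells, and 8.36, 84.3, 149, 161 and 117 FPKM with 1 cell. Bulk libraries had 33.1, 34.5, 43.1 and 46.6 FPKM. The range of every group with 1 or 2 cells overlapped that of bulk, and 1 raft with 1 cell was at 0. Empty C1 captures held 3.0 and 25.2 FPKM in 2 of 5.

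KRT10, the epidermal type I keratin, separated the capture methods. It had 61.4 to 245 FPKM (median 145) in 2-cell rafts and 76.2 to 364 FPKM (median 217) in 1-cell rafts. In the C1 it had 1.94, 1.88, 9.3, 3.78 and 9.54 FPKM with 2 cells, and 1.63, 3.38, 12.4, 1.71 and 18.2 FPKM with 1 cell. Bulk libraries had 128, 103, 174 and 156 FPKM. No C1 capture reached the lowest raft or bulk library, whereas rafts and bulk overlapped. TMEM99, which shares 56 exon bases with KRT10 on the other strand, did not separate in this way, with a median of 73.7 FPKM in 1-cell rafts and 64.2 FPKM in 1-cell C1 captures. The share of all genes that separate the methods as KRT10 did was not computed. Between 1-cell rafts and 1-cell C1 captures, 60.6% of genes measured differed by at least 1 log2 unit, and 56.4% did with 2 cells.

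KRT17 and KRT80 were scattered. KRT17 was detected in 6 of 10 2-cell rafts (up to 232 FPKM, median 6.3) and in 7 of 10 1-cell rafts (up to 274 FPKM, median 54.0). In the C1 it had 191, 3.07, 11.8, 7.71 and 69.9 FPKM with 2 cells, and 248 FPKM in 1 of 5 captures with 1 cell, the other 4 being at 0. Bulk libraries had 0, 6.08, 10.01 and 4.73 FPKM. Single rafts thus reached levels far above any bulk library, while others were at 0. KRT80 had 1.8 to 24.0 FPKM (median 9.57) in 2-cell rafts and 0 to 44.0 FPKM (median 20.3) in 1-cell rafts. It had 31.3, 0, 17.6, 0 and 8.99 FPKM in 2-cell C1 captures, 0.19, 1.38, 0.08, 0 and 33.5 FPKM in 1-cell C1 captures, and 18.7, 12.7, 10.3 and 17.2 FPKM in bulk.

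The hair keratins were present in all bulk libraries and in a minority of 1-cell rafts. Of 5 1-cell C1 captures, 2 had both detected, 1 had KRT81 alone and 2 had neither. KRT86 had 0 to 43.4 FPKM (median 3.73) in 2-cell rafts, where 7 of 10 had it detected, and 44.7, 35.7 and 23.9 FPKM in 3 of 10 1-cell rafts, the other 7 being at 0. In the C1 it had 0, 0, 339, 0.74 and 0 FPKM with 2 cells and 0, 0, 28.6, 0 and 24.5 FPKM with 1 cell. Bulk libraries had 7.69, 21.95, 15.6 and 13.97 FPKM. For KRT86 alone, each 1-cell library, raft or C1, was thus either at 0 or above the highest bulk library. This did not hold for the sum of KRT81 and KRT86, which was 18.4 to 33.7 FPKM in bulk. On the sum, a 1-cell C1 capture at 24.9 FPKM lay inside the bulk range and a 1-cell raft at 16.6 FPKM lay below it. The 3 1-cell rafts with KRT86 were all from the first of 2 library sets, and so were 5 of the 7 2-cell rafts with it. The titles name no sets. The 2 sets were grouped here from the style of the sample titles, and what a set stands for is not stated.

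KRT81 had 0 to 43.2 FPKM (median 1.84) in 2-cell rafts, with 6 of 10 detected, and 16.6 FPKM in 1 of 10 1-cell rafts, the rest being at 0. In the C1 it had 0, 0, 286, 4.13 and 0 FPKM with 2 cells and 0, 0, 66.8, 24.9 and 121 FPKM with 1 cell. Bulk libraries had 10.7, 11.7, 3.03 and 6.72 FPKM. The same 2-cell C1 capture held the highest KRT81 and the highest KRT86. Both genes were detected together in 5 of 10 2-cell rafts, in no 1-cell raft, in 2 of 5 1-cell C1 captures and in all 4 bulk libraries. Both genes were at 0 in every empty raft, empty C1 capture and water library. The summed pair had 0 to 85.55 FPKM (median 10.4) in 2-cell rafts and 0 to 44.7 FPKM (median 0) in 1-cell rafts. In the C1 the sum was 0 to 624 FPKM (median 0) with 2 cells and 0 to 146 FPKM (median 24.9) with 1 cell.

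**Figure D1:**
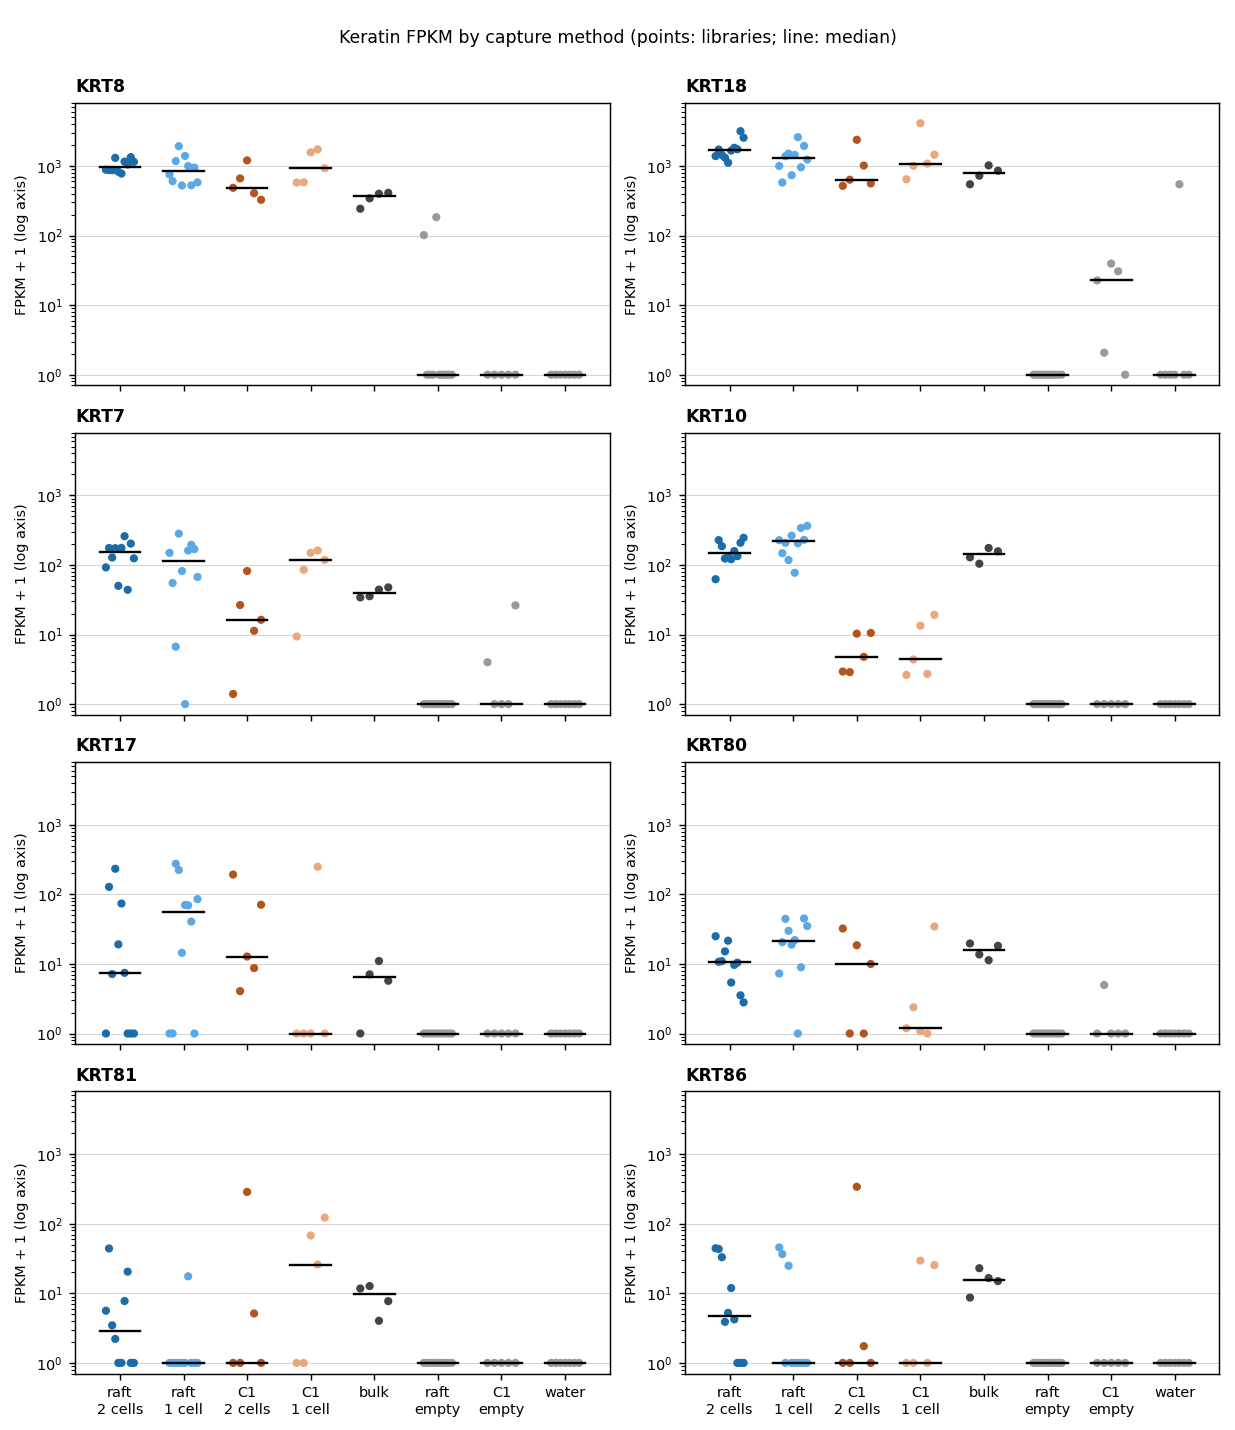
FPKM + 1 on a log axis for each member by capture method, with a point per library and a line at the median. KRT8 and KRT18 are high in every library with cells, KRT10 is 61.4 to 364 FPKM in rafts with cells against 1.63 to 18.2 FPKM in C1 captures with cells, and KRT81 and KRT86 are at 0 in most 1-cell rafts.

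Differences between capture groups are differences of mean log2(FPKM + 1), with no test, counted as past a threshold at 1 log2 unit. Between 1-cell rafts and 1-cell C1 captures, KRT10 (5.04), KRT17 (2.79) and KRT80 (2.67) were higher in rafts and none of the 7 members measured was lower by that much. A gene had to be detected in at least 5 of these libraries, and KRT17 and KRT80 met this only through the rafts. KRT81 did not meet it and was left out, though its mean was 0.41 in 1-cell rafts and 3.54 in 1-cell C1 captures. The absence of lower members thus depends on the filter. Over all genes measured, 60.6% passed the same threshold, 25.9% higher and 34.7% lower, so a share of 3 of 7 is no more than the background. Between 2-cell rafts and 2-cell C1 captures, KRT10 (4.81), KRT7 (3.14) and KRT18 (1.01) were higher and KRT17 (-1.41) was lower, 4 of 8 against a background of 56.4% (28.3% higher and 28.1% lower). KRT10 was the 1 member past the threshold in the same direction at both cell numbers.

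Between 2-cell and 1-cell rafts, KRT81 (1.41), KRT7 (1.10) and KRT86 (1.06) were higher and KRT17 (-1.27) lower with 2 cells, 4 of 8 against a background of 22.5% (21.1% higher and 1.39% lower). In the first library set alone no member passed and KRT17 stood at 0.44, and without 1-cell replicate 3 the count over both sets was 1. In the C1 the order differed, with KRT17 (2.92) and KRT80 (1.17) higher and KRT7 (-2.40) and KRT81 (-1.44) lower with 2 cells, 4 of 7 against 26.5% (17.9% higher and 8.56% lower). KRT7 and KRT81 thus had opposite signs in the 2 methods, a difference that was not tested. Against bulk, 1-cell rafts had higher KRT17 (2.18) and KRT8 (1.33) and lower KRT81 (-2.63) and KRT86 (-2.36), 4 of 8 against 42.3% (7.42% higher and 34.9% lower). Against bulk, 1-cell C1 captures had higher KRT8 (1.501) and lower KRT10 (-4.52), KRT80 (-2.60) and KRT86 (-1.99), 4 of 7 against 60.4% (25.1% higher and 35.4% lower). KRT8 was higher and KRT86 lower in single cells than in bulk by both methods. Against cell-free controls, all 6 members measured were higher in 1-cell rafts than in empty rafts (background 92.1%, with 87.6% higher), and all 4 measured were higher in 1-cell than in empty C1 captures (background 70.2%, with 66.7% higher). A gene was measured only if detected in at least 5 libraries of the 2 groups. KRT8 was the only member detected in any empty raft, so members passed that filter through the 1-cell rafts. KRT8 and KRT10 were at 0 in empty C1 captures and passed through the 1-cell captures. These directions were thus largely fixed by the filter and are given only as a description.

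Of 45 other keratin names, 4 were detected in enough libraries of a group to be counted. KRT23, a type I keratin, had 93.6 FPKM on average in bulk, was at 0 in all 10 1-cell rafts, and had 15.8 to 505 FPKM in 1-cell C1 captures. KRT16, a stress-responsive epidermal keratin, averaged 5.66 FPKM in bulk, KRT4 1.87 FPKM and KRT13 0.85 FPKM. KRT83, a hair keratin whose coding sequence was 93.3% identical to KRT81, was not detected in bulk. For the lists that follow, the background between 1-cell rafts and 1-cell C1 captures was 25.9% higher and 34.7% lower, with a median over all genes of -0.28. Among genes that work with keratins, 3 of 3 other intermediate filament genes measured were higher in 1-cell rafts than in 1-cell C1 captures, including VIM (2.21), the vimentin filament, and LMNA (1.95), a nuclear lamin. On a list of desmosome and filament linker genes, desmosomes being junctions that anchor filaments, 3 of 16 measured were higher and 5 lower (median -0.06). Of 15 regulators of keratin genes, 1 was higher and 11 were lower (median -1.81).

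KRT86 and KRT81 were higher in proliferative than in nonproliferative rafts averaged over the 4 arms, and so were KRT7 and KRT8. The test was limma on log2(FPKM + 1) over 11560 rows, with Benjamini-Hochberg adjustment over all of them and a threshold of 0.05, in the 52 rafts (26 per class) with at least 1000 rows detected. Of 8 members, 4 rose and none fell, with a median difference of 3.26, against 12.1% of all rows called (11.4% higher and 0.753% lower) and a median of 0.58. KRT86 had 0 to 1565 FPKM (median 93.6) in proliferative rafts and 0 to 96.2 FPKM (median 0) in nonproliferative rafts. It was detected in 22 of 26 against 7 of 26, and the classes overlapped. Rows entered the test if detected in at least 8 of the 52 rafts, so KRT86 entered it only through the proliferative rafts. The log2 difference was 4.71 ± 0.80 (SE; limma adjusted p = 0.000323), the smallest p of all rows. With no filter on rows KRT86 was also called (4.71, limma adjusted p = 0.000309).

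KRT81 had 0 to 1677 FPKM (median 127) in proliferative rafts and 0 to 1219 FPKM (median 0) in nonproliferative rafts, detected in 19 of 26 and 9 of 26. It rose by 3.64 ± 0.91 (SE; limma adjusted p = 0.00644). With KRT81 and KRT86 summed, a combination chosen after the values were seen, the difference was 5.03 ± 0.95 (SE; limma adjusted p = 0.00164). KRT7 had a median of 260.4 FPKM in proliferative rafts and 7.32 FPKM in nonproliferative rafts, a rise of 3.91 ± 0.99 (SE; limma adjusted p = 0.00708). KRT8 had medians of 1057 FPKM and 105 FPKM in proliferative and nonproliferative rafts and rose by 3.68 ± 1.10 (SE; limma adjusted p = 0.0212).

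The other members did not pass. KRT18, the partner of KRT8, had medians of 1607 FPKM in proliferative and 277 FPKM in nonproliferative rafts (difference 2.88, limma adjusted p = 0.0692). The epidermal KRT10 was detected in 22 of 26 and 14 of 26 (1.83, limma adjusted p = 0.191). KRT17 was detected in 13 and 7 (2.23, limma adjusted p = 0.0599) and KRT80 in 17 and 10 (1.08, limma adjusted p = 0.258). Like KRT86, KRT17 entered the test only through the proliferative rafts. Leaving out 1 raft at a time gave a call for KRT17 in 14 of 52 omissions (lowest limma adjusted p = 0.0297) and for KRT18 in 6 of 52 (lowest limma adjusted p = 0.0225).

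The classes also differed in library quality. Tested proliferative rafts had 1200 to 10206 rows detected (median 6022) and nonproliferative rafts 1011 to 10424 (median 2800). Rank correlation with mean bulk expression, computed without keratins, had a median of 0.549 in proliferative and 0.151 in nonproliferative rafts. In the 34 rafts with a correlation of at least 0.25, 22 proliferative and 12 nonproliferative, 2 members were called. These were KRT86 (4.07, limma adjusted p = 0.014) and KRT8 (2.03, limma adjusted p = 0.014), with 94 of 10083 rows called. There, 20 of 22 proliferative rafts had KRT86 detected, against 6 of 12 nonproliferative ones. KRT7 (2.42, limma adjusted p = 0.158), KRT81 (1.78, limma adjusted p = 0.479) and the summed pair (3.12, limma adjusted p = 0.0803) lost the call, and KRT10 (-0.54) and KRT80 (-0.04) changed sign. In all 52 rafts, with rows detected per raft as a covariate, KRT86 (4.26, limma adjusted p = 0.000757), KRT81 (3.25, limma adjusted p = 0.0348) and KRT7 (3.24, limma adjusted p = 0.0376) passed and KRT8 (3.16, limma adjusted p = 0.0823) did not. KRT86 was thus the 1 member called under both settings. Rows detected did not always follow the correlation with bulk. Saline nonproliferative replicate 3 had 10424 rows detected and a correlation of -0.10, and 5 nM nonproliferative replicate 7 had 10198 and -0.02. Empty rafts reached 1301 rows, above the 1000 needed to enter the test. The part of library quality in the results on all 52 rafts was not tested. The number of cells on a raft is unknown, so fewer cells and less RNA per cell cannot be told apart.

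**Figure D2:**
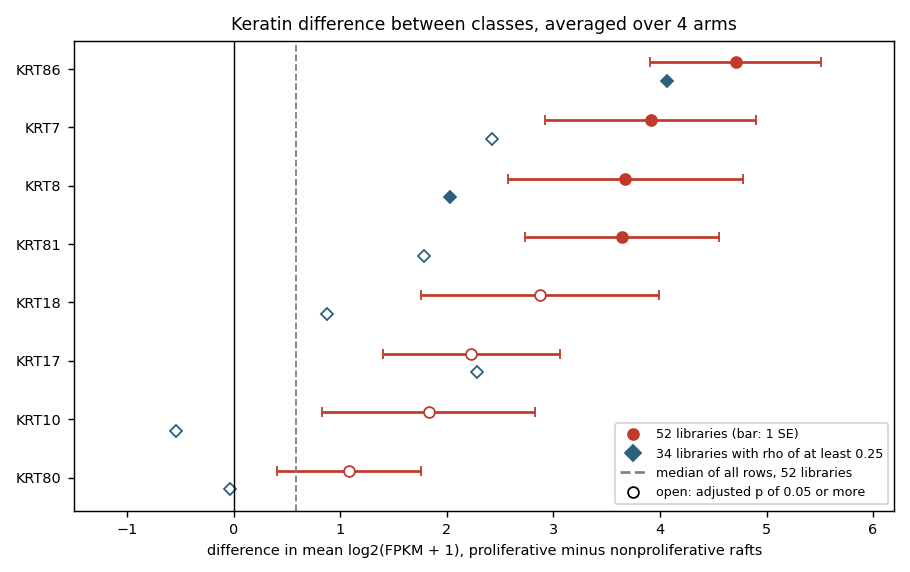
Log2 difference, proliferative minus nonproliferative, averaged over 4 arms, for each member in 52 rafts (bars: 1 SE) and in the 34 rafts that correlate with bulk at 0.25 or more, with open symbols where the adjusted p is 0.05 or more. KRT86 is at 4.71 and 4.07, and the median of all rows is 0.58.

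Within each arm no member passed. Rows called were 0 in untreated (808 at an unadjusted p under 0.05), 0 in saline (1272), 2 with 2 nM gemcitabine (1348, a background of 0.0173%) and 0 with 5 nM gemcitabine (1030) by limma. KRT86 in untreated rafts had 0 to 19841 FPKM (median 14.4) in the proliferative class and 0 in all 8 of the nonproliferative class. The highest of these was a raft with 680 rows detected, which was not tested. In saline it had 0 to 575 FPKM (median 65.4) in proliferative rafts and 0 to 21.3 FPKM (median 0) in nonproliferative rafts. With 2 nM gemcitabine it had 0 to 1565 FPKM (median 134) against 0 to 96.2 FPKM (median 0), and with 5 nM 0 to 702 FPKM (median 100.3) against 0 to 71.3 FPKM (median 0), proliferative rafts first. Detection was higher in the proliferative class in each arm, in 4 against 0, 7 against 3, 7 against 1 and 5 against 3 of 8 rafts, while ranges overlapped. The differences, from untreated to 5 nM, were 3.61, 4.49, 6.90 and 3.84 (limma adjusted p = 0.703, 0.414, 0.0502 and 0.449).

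Without treatment, KRT81 was at 583 FPKM in 1 proliferative raft, at 0 in the other 7, and at 0 in all 8 nonproliferative ones. In saline it had 0 to 993 FPKM (median 73.5) in proliferative and 0 to 41.4 FPKM (median 0) in nonproliferative rafts. With 2 nM gemcitabine it had 0 to 1677 FPKM (median 664) in proliferative and 0 to 111 FPKM (median 0) in nonproliferative rafts. With 5 nM it had 0 to 524 FPKM (median 63.8) in proliferative and 0 to 1219 FPKM (median 46.6) in nonproliferative rafts, which thus held the highest value of that arm. The differences, from untreated to 5 nM, were 1.84, 4.60, 7.16 and 0.97 (limma adjusted p = 0.922, 0.452, 0.141 and 0.883). For KRT81 and KRT86 summed they were 4.14, 5.93, 7.64 and 2.41 (limma adjusted p = 0.722, 0.41, 0.105 and 0.705). Both hair keratins were detected together in 1, 6, 7 and 4 of 8 proliferative rafts and in 0, 3, 1 and 2 of 8 nonproliferative rafts, in the same order of arms.

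**Figure D3:**
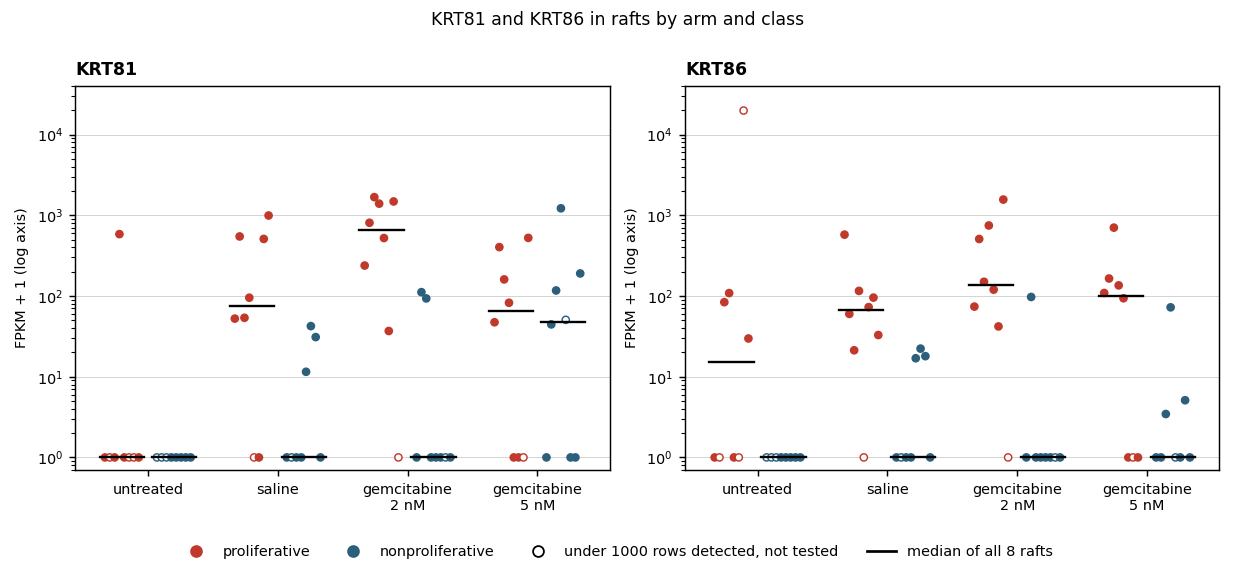
FPKM + 1 on a log axis for KRT81 and KRT86 in each raft by arm and class, with a line at the median of all 8 rafts and open symbols for rafts not tested. KRT86 is at 0 in all 8 nonproliferative untreated rafts, and KRT81 with 5 nM gemcitabine reaches 1219 FPKM in a nonproliferative raft.

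In the tested rafts of saline, KRT7 did not overlap between classes, with 129 to 577 FPKM in proliferative rafts and 0 to 125 FPKM in nonproliferative rafts. It did not pass in that arm's own test (5.80, limma adjusted p = 0.414). With 2 nM gemcitabine, KRT8 had 948 to 2652 FPKM in proliferative and 0 to 768 FPKM in nonproliferative rafts, and KRT18 had 1338 to 4933 FPKM in proliferative and 0 to 1013 FPKM in nonproliferative rafts. Neither passed in the arm's own test (KRT8 6.80, limma adjusted p = 0.337, and KRT18 5.52, limma adjusted p = 0.347). With all 8 rafts per class, KRT7 in saline and KRT8 and KRT18 with 2 nM overlapped between classes. The share of all rows without overlap was not computed, so these gaps are given only as a description. With 5 nM gemcitabine the classes overlapped for every member, and KRT7 had medians of 155 FPKM in proliferative and 47.4 FPKM in nonproliferative rafts (0.56, limma adjusted p = 0.943).

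**Figure D4:**
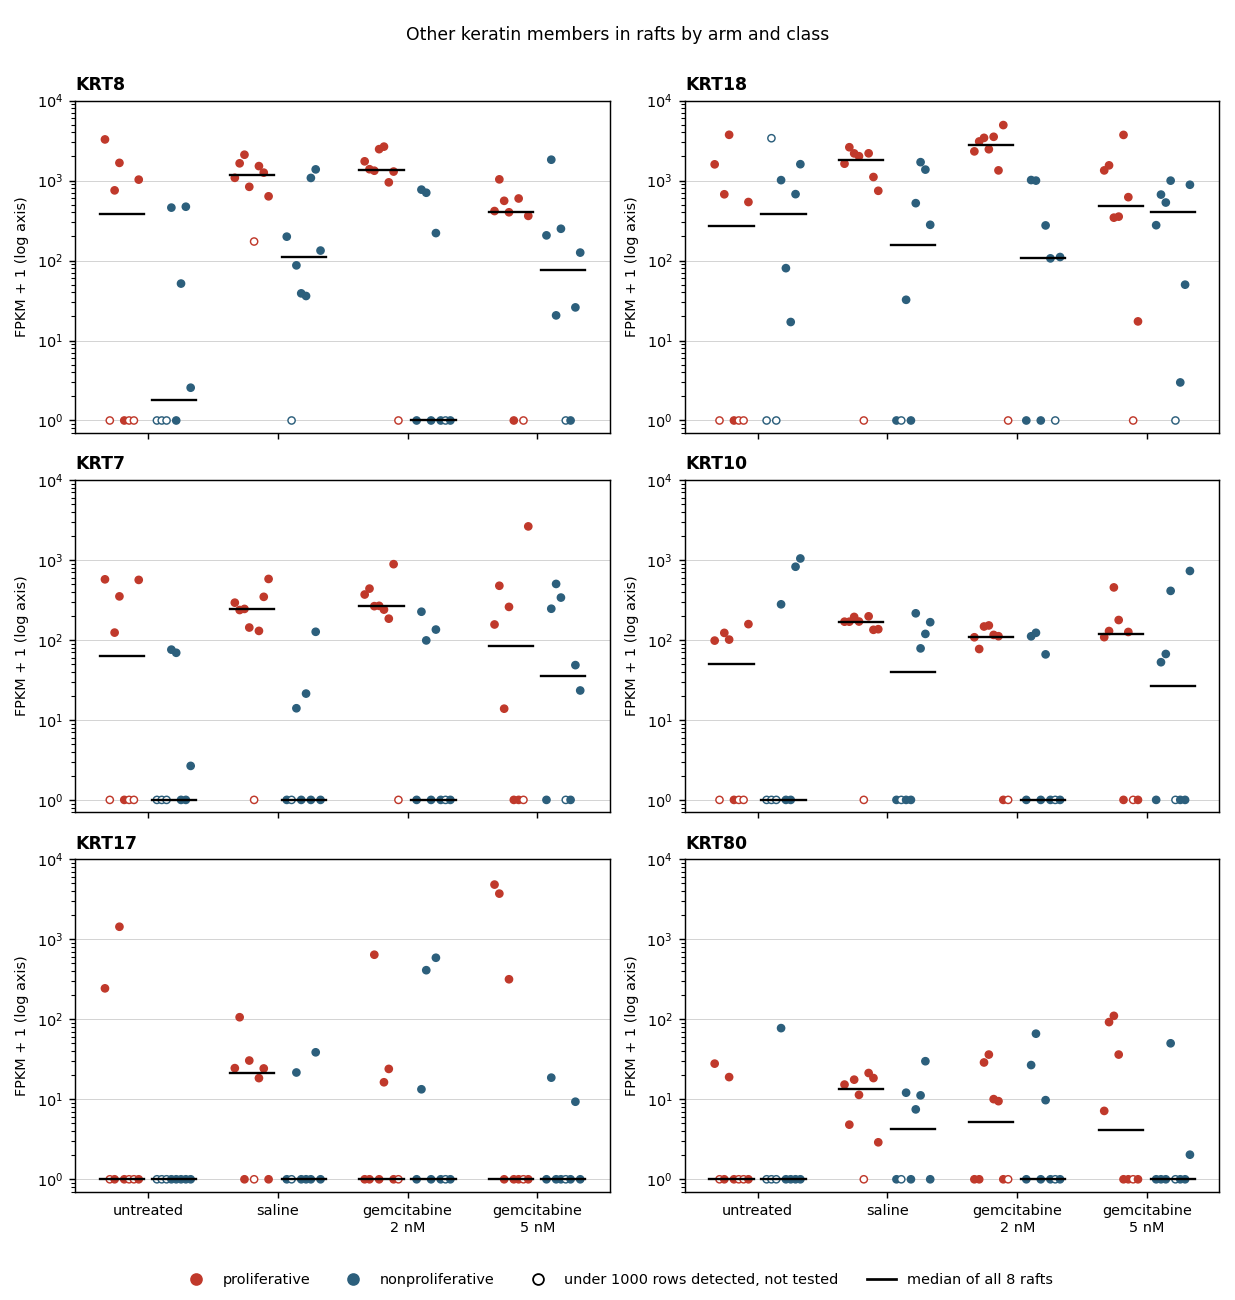
FPKM + 1 on a log axis for the other 6 members in each raft by arm and class, with a line at the median of all 8 rafts and open symbols for rafts not tested. KRT8 and KRT18 with 2 nM gemcitabine separate by class among tested rafts, at 948 FPKM and above against 768 FPKM and below for KRT8, and overlap with all 8 rafts per class.

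The same test was read for genes that work with keratins and for markers of other cell types. Of 18 genes tested from the desmosome and linker list, 3 rose in proliferative rafts averaged over arms and none fell (median 0.44). Over all rows 11.4% were higher and the median was 0.58, so the count and median are near the background. The 3 were JUP (plakoglobin, 4.73), SFN (2.28) and YWHAZ (3.47), with limma adjusted p of 0.00707, 0.0136 and 0.0195. SFN and YWHAZ encode adaptor proteins and were on that list without being parts of desmosomes. Of 4 other intermediate filament genes, LMNA (4.41) and VIM (3.37) rose (limma adjusted p = 0.00274 and 0.0201; median 2.20). Of 17 regulators, 3 rose (median 0.67), which is also near the background, namely the AP-1 subunits FOSL1 (4.47), FOSL2 (1.36) and JUNB (1.80), with limma adjusted p of 0.00399, 0.0311 and 0.0434. Of 17 ductal markers 1 rose, the tight junction gene CLDN7 (2.15, limma adjusted p = 0.0161; median 1.20). Of 4 epidermal keratinocyte markers tested 1 rose, DMKN (2.67, limma adjusted p = 0.0277). Summed over 20 such markers, proliferative rafts reached 146, 335, 306 and 539 FPKM and nonproliferative rafts 369, 148, 143 and 149 FPKM, from untreated to 5 nM, and the lowest raft of each group was at 0. KRT14, the basal keratinocyte keratin, was detected on none of these rafts, and KRT5 on 1. The part of these markers in the keratin values was not tested. Neither of 2 fibroblast markers, the 1 acinar marker nor the 3 other keratins tested passed (KRT16 0.85, KRT23 0.77 and KRT6A 0.27, limma adjusted p = 0.364, 0.457 and 0.549).

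No member passed the test for treatment. Between 5 nM gemcitabine and saline, averaged over classes, 536 rows (4.64%) passed, 4.56% lower and 0.0779% higher with gemcitabine, and no member did. KRT86 differed by -0.67 (limma adjusted p = 0.706) and KRT81 by 0.51 (limma adjusted p = 0.806), with a member median of -0.39 against -0.76 over all rows. Between 2 nM gemcitabine and saline no row passed by limma (768 at an unadjusted p under 0.05), with KRT86 at 0.33 and KRT81 at 1.21. Between saline and untreated rafts 44 rows (0.381%) passed, with KRT81 at 3.36 ± 1.34 and KRT86 at 2.26 ± 1.18 (SE; limma adjusted p = 0.0987 and 0.185). The class difference at 5 nM minus that in saline was -3.63 ± 2.45 for KRT81, -0.64 ± 2.16 for KRT86 and -5.24 ± 2.66 for KRT7 (SE; limma adjusted p = 0.999 for each), and no row passed that test (363 at an unadjusted p under 0.05). The treatment comparisons with saline share the saline rafts.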

How the data were processed

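Single-cell, raft and bulk RNA of CFPAC-1 cells was amplified with SMARTer and made into Nextera XT libraries, per the labels' protocols. The authors deposited FPKM values for 120 libraries in 1 table of 30504 rows, made with RSEM on hg19 per the submitters' processing notes; depth is unknown. Library totals ran from 339644 to 817990 FPKM. Of the names, 1116 stood on more than 1 row, and the row with the highest mean was used.

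Members and gene lists were chosen with earlier results of these data known; members were always named, and of each other list up to 4 genes with the smallest p. Classes and treatments were tested with limma 3.58.1 (R 4.3.3) on log2(FPKM + 1), a fold change that understates low genes, in rafts with at least 1000 rows detected and rows detected in at least 8 rafts, with 8 group means. Capture groups were set side by side without a test, for genes detected in at least 5 libraries. The limma script was tested on simulated data. Transcript sequences were from GENCODE release 29 and no hg19 coordinates were used. Alternatives changed the pseudocount (0.1), filters, libraries, scaling and rows per name, left out each library, and added a replicate block.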

Additional observations from a re-analysis of the deposited data

Results flagged for a closer look

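In 22 of 106 combinations of gene and group, 1 library stood apart from the others by Dixon's gap test. The usual rate of about 1 group in 20 holds for normal values and not for values with many zeros, so it gives no comparison here. In 7 of the 22 every other library was at 0. In the C1, 1 2-cell capture had 285.56 FPKM of KRT81 and 338.85 FPKM of KRT86, with the next highest at 4.13 and 0.74 FPKM. Among 1-cell C1 captures, KRT7 was low in 1 (8.36 FPKM, next 84.32), KRT17 was 247.75 FPKM in 1 with the others at 0, and KRT80 was 33.52 FPKM in 1 (next 1.38). Among 1-cell rafts, the same raft had KRT80 at 0.0 FPKM (next 6.28) and the only KRT81, at 16.56 FPKM. In 2-cell rafts, KRT10 was low in 1 at 61.4 FPKM (next 119.87). In controls, 1 water library had 545.77 FPKM of KRT18 and 1 empty C1 capture had 3.98 FPKM of KRT80.

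In untreated proliferative rafts, KRT86 was 19841.13 FPKM in 1 raft with 680 rows detected (next 107.63), and KRT81 was 583.35 FPKM in another, the others being at 0. In untreated nonproliferative rafts KRT80 was 76.59 FPKM in 1. A saline proliferative raft with 735 rows detected had KRT7, KRT18 and KRT10 at 0.0 FPKM (next 128.64, 743.07 and 132.77). A 2 nM gemcitabine proliferative raft with 472 rows detected had KRT7, KRT8 and KRT18 at 0.0 FPKM (next 183.35, 947.92 and 1337.63). These low rafts entered no test. Among nonproliferative rafts, KRT86 was 96.23 FPKM in 1 with 2 nM gemcitabine, and with 5 nM 1 raft had KRT80 at 49.13 FPKM (next 1.03) and KRT86 at 71.34 FPKM (next 4.11).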

How the results depend on the processing

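Averaged over arms, 4 members were called and 3 to 5 under every planned setting except the 34 rafts correlated with bulk, which gave 2. KRT8 was lost with all 64 rafts (3.23, limma adjusted p = 0.0593) and with genes detected as covariate (3.16, limma adjusted p = 0.0823), and KRT17 was gained with a pseudocount of 0.1 (3.04, limma adjusted p = 0.0443). KRT86 kept its call throughout (4.07 to 6.65, limma adjusted p 0.000278 to 0.014). Rows called were 1400, against 756 with no filter, 641 with all rafts, 660 with quantile normalization, 225 with the covariate, 94 in correlated rafts and 905 with the replicate block. The block left 4 members (KRT86 4.64, limma adjusted p = 0.00115) and changed no call of a member. Rafts of the same number correlated at -0.018 on average over 147 pairs, and 6 of 52 correlated best with their own number, so they share only a number. The median of all rows was 0.58, and 0.19 with quantile normalization, 0.15 with the covariate and 1.13 with pseudocount 0.1.

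With 2 nM gemcitabine 1 member was called with no filter and 1 with rows summed per name, and between saline and untreated 2 with all 64 rafts. Without a test, 2-cell against 1-cell rafts gave 0 members in set 1, 1-cell rafts against bulk 1 in set 1 and 2 in set 2, 1-cell rafts against empty 3 in set 2, and 1-cell against empty C1 captures 7 with no filter. In tested contrasts, signs were read for all members averaged over arms and for KRT7, KRT8, KRT81 and KRT86 within arms. For treatment and the interaction they were read for KRT81 and KRT86 only. Signs turned in correlated rafts for KRT10 (-0.54) and KRT80 (-0.0381) averaged over arms, for KRT7 (-1.71) and KRT81 (-2.65) at 5 nM, and for KRT86 in the interaction (0.36, and 0.25 with quantile normalization). KRT86 also turned for 5 nM minus saline (0.35 quantile, 0.0144 covariate) and 2 nM minus saline (-0.12 with pseudocount 0.1), and KRT17 between 2-cell and 1-cell rafts (0.44 in set 1). The cause was not tested.

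Leaving out 1 library at a time, counts ranged 4 to 6 averaged over arms, 0 to 2 at 2 nM and 0 to 1 for saline minus untreated (KRT81 4.28, limma adjusted p = 0.0436, without untreated proliferative replicate 4). At 2 nM, 17 of 52 omissions gave a call, the lowest KRT86 adjusted p being 0.0139 by limma without nonproliferative replicate 2. Counts were 3 to 4 for 1-cell rafts against C1, 2 to 8 for 2-cell rafts against C1 (8 without 2-cell C1 replicate 3, 2 without replicate 5), and 1 to 4 for 2-cell against 1-cell rafts (1 without 1-cell replicate 3, 2 without 2-cell replicate 1 or 1-cell replicate 6). They were 2 to 4 for 2-cell against 1-cell C1 (2 without 2-cell replicate 1 or 5, or 1-cell replicate 3, 4 or 5), 3 to 5 for 1-cell rafts against bulk, and 4 to 7 for 1-cell C1 against bulk (7 without 1-cell replicate 1). They were 6 for rafts against empty and 2 to 4 for C1 against empty (2 without any 1-cell capture, since 5 detections are needed), and 0 elsewhere. Among tested contrasts, read for the same members as the signs above and not for every member, values crossed 0 for KRT7 at 5 nM (-0.40 to 1.49), KRT81 for 5 nM minus saline (-0.0372 to 0.95), and KRT86 for 2 nM minus saline (-0.14 to 0.57) and in the interaction (-1.33 to 0.24). Untested differences crossed 0 for KRT7 (-1.10 to 0.30), KRT8 (-0.36 to 0.0383) and KRT18 (-0.38 to 0.29) between 1-cell rafts and C1, KRT81 (-0.81 to 1.23) between 2-cell rafts and C1, KRT10 (-0.47 to 0.24) between 2-cell and 1-cell C1, KRT80 (-0.0951 to 0.52) between 1-cell rafts and bulk, and KRT81 (-0.35 to 1.38) between 1-cell C1 and bulk.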

Other observations

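As a description over the 20 rafts with 1 or 2 cells, the genes whose levels followed KRT8 most closely were ABHD2 (Spearman 0.782), TM4SF18 (0.776) and C9orf89 (0.776), of 5359 candidates. For KRT18 they were EPHA2 (0.776), an ephrin receptor, SPTLC2 (0.748) and the ribosomal protein gene RPS9 (0.746). KRT81 was detected in 7 of these rafts, and MRPL36 (0.789), PET117 (0.625) and NME2 (0.609) followed it most closely. The rafts share library sets, so no p is given.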
